A study of Mus musculus with 6 samples.

Results

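Phenylalanine and tyrosine breakdown is described here through 7 genes, Qdpr, Pcbd1, Tat, Hpd, Hgd, Gstz1 and Fah, picked by symbol from the 56674 rows of a mouse liver count table. All 7 had a row of their own, and all 7 were among the 18284 genes that passed the filter on low counts. The livers came from male C57BL/6 mice, a common inbred strain, at an age of 71 weeks. In the PP-MP group (3 libraries) the chow contained polypropylene microplastic, small particles of a common packaging plastic, and in the control group (3 libraries) the chow was normal. Both groups were reared under controlled temperature, and no genetic change or other agent is named for either. The treatment protocol of every sample names PS-MP, so the groups rest on the titles and the treatment entry, and the labels state neither a dose nor a particle size. The series asks how prolonged exposure to the plastic affects gene expression in the liver. The labels do not say that libraries of a group came from separate animals, so p-values measure the spread between these libraries.

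The liver is the main site where surplus phenylalanine and tyrosine are taken apart. Phenylalanine is hydroxylated to tyrosine with tetrahydrobiopterin as cofactor, and Pcbd1 and Qdpr restore the spent cofactor. Tat, the aminotransferase that opens tyrosine breakdown, is followed by the dioxygenases Hpd and Hgd, the isomerase Gstz1 and the hydrolase Fah, which together turn the ring into fumarate and acetoacetate. In humans, inherited loss of HGD is known as alkaptonuria, and loss of FAH as a severe tyrosinaemia.

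The libraries held 81073738 to 100252360 counts in PP-MP and 68357478 to 112566641 in control. The 7 genes took 0.482% to 0.534% of all counts in PP-MP and 0.383% to 0.506% in control. The ribosomal RNA gene Rn18s-rs5 held 0.655% to 0.750% in PP-MP and 1.15% to 11.2% in control, with the highest share in control 2. All 12 hepatocyte markers were tested, and their summed level was 91797 to 103764 CPM in PP-MP and 80933 to 102383 CPM in control, where CPM is the count relative to the TMM-scaled library size. Alb alone averaged 52699 CPM in PP-MP and 51849 CPM in control, so it weighs heavily in that sum. The smallest count of any of the 7 genes in any library was 2892, so counting error is small beside the spread between libraries.

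None of the 7 genes passed the test. With edgeR's quasi-likelihood test and Benjamini-Hochberg adjustment over all 18284 genes at a threshold of 0.05, 0 of 7 were called, against 0.0109% of all genes tested, 0.00547% in each direction. The limma-voom and DESeq2 tests also called 0 of 7, where DESeq2 called 4.26% of all genes, 2.39% as higher and 1.87% as lower. At an unadjusted p under 0.05 edgeR listed 2 of the 7, Qdpr and Pcbd1, both with lower means in PP-MP, beside 5.81% of all genes tested on that side, 8.05% on the higher side and 13.9% on either. DESeq2 listed 3 at that level, the same pair and Tat, beside 16.2% of all genes in either direction. The fitted value was lower in PP-MP for 6 of the 7 genes, and for 47.4% of all genes tested. The median log2 fold change (PP-MP over control) was −0.25 over the 7 genes and 0.03 over all genes tested. For Qdpr and Pcbd1, 2 of 7, the PP-MP libraries all lay under the control libraries, beside 9.79% of all genes tested in that direction, 12.2% in the other and 22.0% in either. In bulk tissue, fewer cells of a type and less RNA per cell cannot be told apart. For 4 of the 7 genes (Pcbd1, Hpd, Gstz1 and Fah) the 95% interval stayed within 1 log2 unit of no difference, beside 46.3% of all genes.

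**Figure D1:**
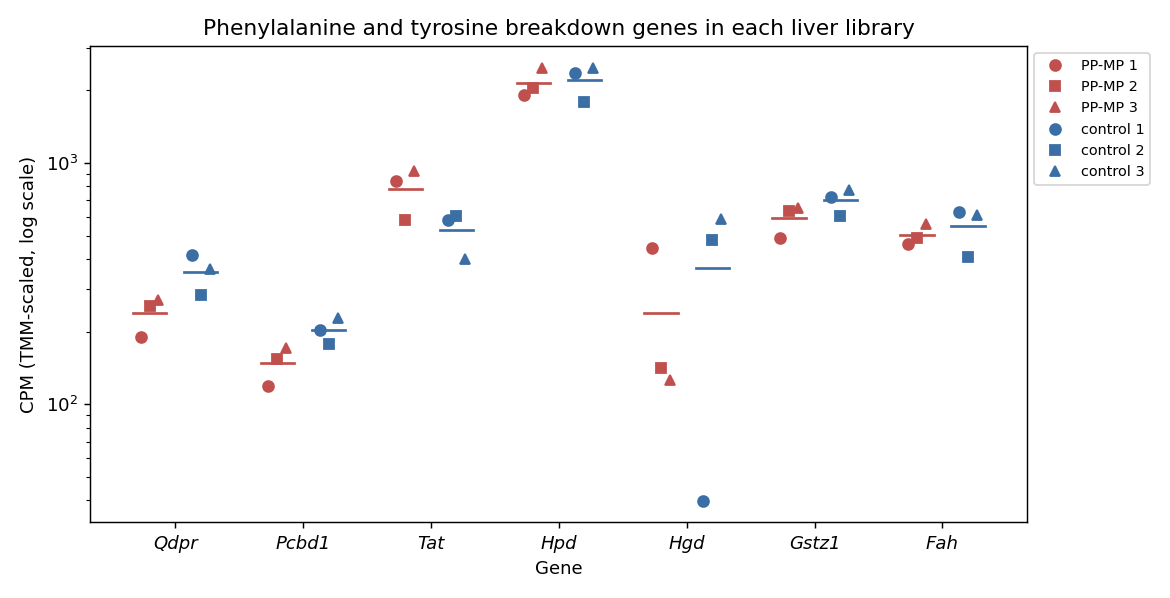
Level of each of the 7 genes in each library, as TMM-scaled CPM on a log axis; red symbols are PP-MP libraries, blue symbols control libraries, symbol shape is the replicate number and the bar is the group mean. Qdpr and Pcbd1 do not overlap between the diets, Tat overlaps through PP-MP 2, and Hgd runs from 39.8 CPM in control 1 to 584 CPM in control 3.

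With all 6 libraries, TMM scaling and the filter on low counts, the cofactor-recycling genes had the smallest edgeR unadjusted p-values of the 7. With library totals Tat had the smallest (edgeR unadjusted p = 0.013), against 0.17 for Qdpr and 0.27 for Pcbd1. Qdpr, the reductase that completes the recycling of tetrahydrobiopterin, had 190.1, 255 and 270.0 CPM in PP-MP 1, 2 and 3, against 414, 283 and 363 CPM in control 1, 2 and 3. The highest PP-MP library lay just under the lowest control library, control 2. The means were 238 ± 42.5 CPM in PP-MP and 353 ± 66.0 CPM in control (SD, n = 3 each), a log2 fold change of −0.57 (SE 0.21, 95% interval −1.07 to −0.06, edgeR adjusted p = 0.33). Pcbd1 encodes the dehydratase of the same recycling. Pcbd1 had 119, 155 and 171 CPM in PP-MP 1, 2 and 3, against 203, 177 and 228 CPM in control 1, 2 and 3. Here too the gap between the diets was narrow, between PP-MP 3 and control 2. Its means were 148 ± 26.5 CPM in PP-MP and 203 ± 25.6 CPM in control (SD, n = 3 each), with a log2 fold change of −0.45 (SE 0.19, 95% interval −0.90 to −0.01, edgeR adjusted p = 0.36). Scaled by library totals alone, the log2 fold changes were −0.34 for Qdpr and −0.23 for Pcbd1, both genes overlapped between the diets, and the median of all genes moved to 0.26. Relative to that median Qdpr stood at −0.61 and Pcbd1 at −0.49. In a short stretch of the annotation (332 exonic bases) the antisense gene model Gm42413 overlaps Qdpr, but it held at most 1 count in any library.

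The 250 bases before the start of both genes are shown because, with TMM scaling, these did not overlap between the diets, as for 22.0% of all genes in either direction. Capitals mark the letters searched on either strand: AGAACA (a core of the glucocorticoid receptor site), the TATA box TATAAA, the CCAAT box and the GC box CCGCCC. The sequences are from RefSeq on GRCm38.p6, at chr5:45450230-45450479 on the minus strand for Qdpr and chr10:61089081-61089330 on the plus strand for Pcbd1, while the submitters name GRCm39 for the counts. All 7 genes matched the RefSeq table, with 8 windows because Gstz1 has more than 1 start.
Qdpr: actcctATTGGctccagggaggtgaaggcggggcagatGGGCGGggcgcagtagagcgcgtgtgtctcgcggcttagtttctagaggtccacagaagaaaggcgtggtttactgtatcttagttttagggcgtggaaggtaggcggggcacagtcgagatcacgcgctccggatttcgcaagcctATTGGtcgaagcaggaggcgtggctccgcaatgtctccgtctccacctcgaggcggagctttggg
Pcbd1: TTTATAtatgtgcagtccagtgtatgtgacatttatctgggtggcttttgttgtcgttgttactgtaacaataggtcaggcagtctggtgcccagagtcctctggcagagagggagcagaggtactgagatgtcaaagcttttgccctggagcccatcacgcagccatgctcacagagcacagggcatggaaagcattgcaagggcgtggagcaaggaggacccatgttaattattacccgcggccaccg
In the Qdpr window the marked letters are CCAAT boxes and a GC box, read on the other strand. In the Pcbd1 window TTTATA, the other strand of TATAAA, stands at the far end, 250 bases before the start. TATAAA on either strand occurs in 12.4% of 32851 windows of this length, and among the 7 genes in Pcbd1 and Hgd. A match describes letters and is not evidence of binding.

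Other genes of tetrahydrobiopterin synthesis and its control showed no call either, 0 of 6 tested. At an unadjusted p under 0.05, 2 had lower means and 1 a higher mean in PP-MP, and the list median was −0.38. Gch1, the rate-limiting enzyme of cofactor synthesis, had 107, 105 and 108 CPM in PP-MP 1, 2 and 3, against 130.3, 134 and 163 CPM in control 1, 2 and 3. The PP-MP libraries were nearly level with one another and all below control (log2 fold change −0.41, SE 0.14, edgeR adjusted p = 0.30). Pcbd2, a close relative of Pcbd1, averaged 15.7 ± 2.44 CPM in PP-MP and 22.6 ± 1.73 CPM in control (log2 fold change −0.53, edgeR adjusted p = 0.28). Pts, which makes a pterin intermediate of the same synthesis, stood the other way, at 22.7 ± 2.64 CPM in PP-MP and 12.7 ± 6.24 CPM in control (log2 fold change 0.83, edgeR adjusted p = 0.36). Control 2, at 19.7 CPM, came close to the lowest PP-MP library, at 20.3 CPM.

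**Figure D2:**
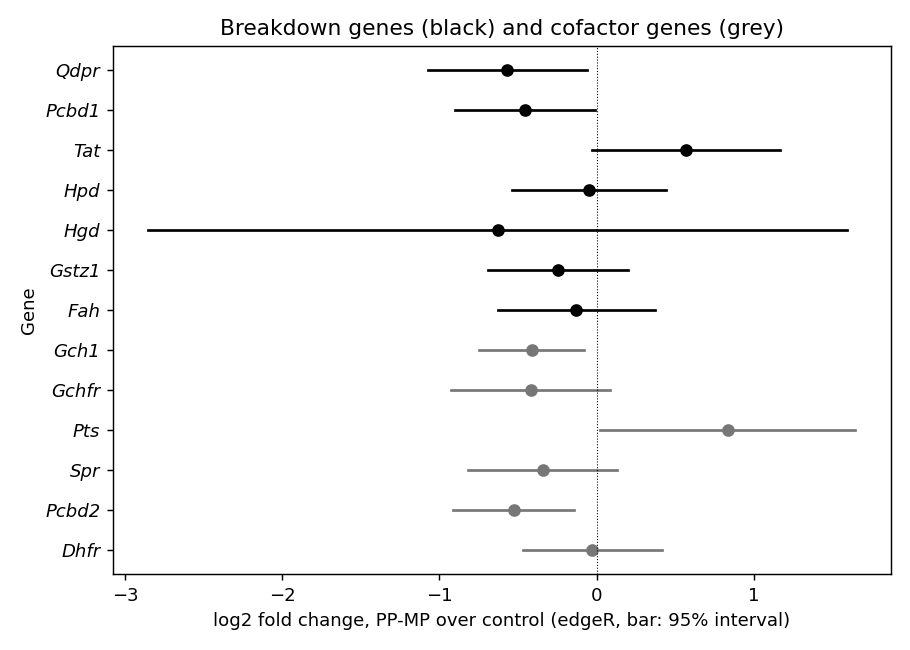
Log2 fold change of PP-MP over control for each gene, with its 95% interval from the edgeR fit; black marks the 7 breakdown genes and grey the genes of tetrahydrobiopterin synthesis. Qdpr, Pcbd1, Gch1 and Pcbd2 lie left of 0, Tat and Pts lie right of it, and the interval of Hgd, −2.85 to 1.59, is the widest shown.

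Tat, the enzyme that commits tyrosine to breakdown, was the 1 gene of the 7 with a higher fitted value. It had 846, 578 and 926 CPM in PP-MP 1, 2 and 3, against 579, 605 and 401 CPM in control 1, 2 and 3. PP-MP 1 and 3 lay above every control library, and PP-MP 2 lay below control 1 and control 2. The means were 783 ± 182 CPM in PP-MP and 528 ± 111 CPM in control (SD, n = 3 each), a log2 fold change of 0.57 (SE 0.25, 95% interval −0.03 to 1.17, edgeR adjusted p = 0.38). Without control 2 the groups no longer overlapped (log2 fold change 0.69), as for 44.1% of all genes in that setting. Without PP-MP 2 they did not overlap either (log2 fold change 0.75), as for 30.5% of all genes. With library totals Tat did not overlap, as for 27.1% of all genes, at a log2 fold change of 0.80 where the median of all genes was 0.26. The Tat window is shown because this gene stood apart in direction from the other 6 (chr8:109990186-109990435, plus strand, GRCm38.p6, RefSeq; capitals as above).
Tat: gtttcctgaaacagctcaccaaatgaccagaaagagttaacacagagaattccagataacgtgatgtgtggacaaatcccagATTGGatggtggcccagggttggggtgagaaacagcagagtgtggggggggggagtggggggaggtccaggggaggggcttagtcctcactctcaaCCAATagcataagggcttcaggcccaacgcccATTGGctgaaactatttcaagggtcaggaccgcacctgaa
RefSeq's Tat start lies 1 base before the transcripts of the GENCODE annotation. The marked letters are CCAAT boxes, on both strands, and CCAAT is found in 33.8% of all windows. AGAACA was not in this window nor in that of any of the 7 genes, against 16.1% of all windows, which says only that those letters are not in these 250 bases.

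Tat is a classical glucocorticoid-induced gene of the rat liver, so a list of glucocorticoid-responsive genes was read beside it. Of 12 listed, 11 were found and tested, 0 were called by edgeR, 2 had higher and 1 a lower mean at an unadjusted p under 0.05, and the median was 0.19. DESeq2 called 1 in each direction, Mt2 as higher and Fkbp5 as lower. Fkbp5, a chaperone partner of the glucocorticoid receptor, had 10.8, 5.70 and 6.78 CPM in PP-MP 1, 2 and 3, against 15.5, 17.6 and 26.7 CPM in control 1, 2 and 3. It was thus below control in every PP-MP library, as for 9.79% of all genes tested (log2 fold change −1.36, SE 0.31, edgeR adjusted p = 0.21), opposite in sign to Tat. The metallothionein Mt2 had 509, 96.1 and 35.1 CPM in PP-MP 1, 2 and 3, against 11.7, 4.43 and 25.4 CPM in control 1, 2 and 3 (log2 fold change 3.94, edgeR adjusted p = 0.25). Zfp36, an RNA-binding protein, averaged 59.95 ± 14.6 CPM in PP-MP and 36.4 ± 4.56 CPM in control (log2 fold change 0.72, edgeR adjusted p = 0.26). Of the 11 tested, 9 had higher and 2 lower fitted values, while 47.4% of all genes tested had lower ones. For 3 of the 11 every PP-MP library lay above every control library, and for 1 below, beside 12.2% and 9.79% of all genes tested. Among 14 transcription factors and coregulators of hepatocyte genes edgeR and DESeq2 called 0, with 1 in each direction at an edgeR unadjusted p under 0.05 and a median of 0.07. Ppargc1a, a coactivator of fasting genes, averaged 10.8 ± 3.57 CPM in PP-MP and 6.76 ± 2.41 CPM in control (log2 fold change 0.68, edgeR adjusted p = 0.43).

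Hpd was the most abundant of the 7, and its means differed least between the diets. Hpd encodes the dioxygenase that turns hydroxyphenylpyruvate into homogentisate. It had 1908, 2039 and 2474 CPM in PP-MP 1, 2 and 3, against 2369.8, 1783 and 2487 CPM in control 1, 2 and 3. The ranges overlapped almost entirely. The log2 fold change was −0.05 (SE 0.21, 95% interval −0.54 to 0.44, edgeR adjusted p = 0.935), which corresponds to a PP-MP to control ratio between 0.688 and 1.36. Its sign turned with library totals (0.17), and without PP-MP 1, control 1 or control 3 (0.02 to 0.07).

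Fah, which makes the final cut into fumarate and acetoacetate, resembled Hpd library by library. It had 459.6, 489 and 559 CPM in PP-MP 1, 2 and 3, against 628, 409 and 611 CPM in control 1, 2 and 3. The PP-MP values lay within the control range. Its log2 fold change was −0.13 (SE 0.21, 95% interval −0.63 to 0.37, edgeR adjusted p = 0.80), and 0.09 with library totals. Gstz1, the isomerase just before Fah, which also handles dichloroacetate, had 487, 632 and 652 CPM in PP-MP 1, 2 and 3, against 723, 605 and 771 CPM in control 1, 2 and 3. PP-MP 2 and 3 lay inside the control range and PP-MP 1 below it (log2 fold change −0.25, SE 0.19, 95% interval −0.69 to 0.20, edgeR adjusted p = 0.58). Gstz1 shares 465 exonic bases with Pomt2 and 156 with Gm6566 on the opposite strand, and Pomt2 held 946 to 2104 counts per library against 36456 to 80682 for Gstz1. Whether strand was used in counting is not stated, so reads of the shared bases cannot be told apart. Without control 2, Gstz1 and Fah joined Qdpr and Pcbd1 below every control library and Tat stood above, 5 of 7, with log2 fold changes of −0.33 for Gstz1 and −0.29 for Fah. In that setting 44.1% of all genes did not overlap either.
The windows of Hpd (chr5:123182724-123182973, minus strand) and Fah (chr7:84605943-84606192, minus strand) are shown because the levels of the pair went together over the libraries (GRCm38.p6, RefSeq, capitals as above).
Hpd: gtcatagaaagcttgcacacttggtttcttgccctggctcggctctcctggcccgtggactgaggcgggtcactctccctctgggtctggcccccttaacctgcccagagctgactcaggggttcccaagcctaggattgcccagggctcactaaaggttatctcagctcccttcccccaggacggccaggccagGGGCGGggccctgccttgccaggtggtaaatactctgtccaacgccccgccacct
Fah: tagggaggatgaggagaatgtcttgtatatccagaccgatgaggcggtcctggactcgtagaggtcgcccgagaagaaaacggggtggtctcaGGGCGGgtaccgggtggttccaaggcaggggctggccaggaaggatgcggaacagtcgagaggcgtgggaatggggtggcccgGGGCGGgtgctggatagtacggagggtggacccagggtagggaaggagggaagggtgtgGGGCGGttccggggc
The letters in capitals are GC boxes on the other strand, 1 in Hpd and 3 in Fah. CCGCCC on either strand is found in 32.7% of all windows.

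Hgd, the dioxygenase that opens the ring of homogentisate, differed between libraries of the same diet far more than the other 6. It had 446, 142 and 126 CPM in PP-MP 1, 2 and 3, against 39.8, 480.1 and 584 CPM in control 1, 2 and 3. The lowest and the highest library both belonged to control, 14.7-fold apart, and within PP-MP the range was 3.54-fold. For the other 6 genes the range within a group was 1.22-fold to 1.60-fold. The within-group SD of log2 CPM was 1.68 for Hgd, against a median of 0.23 over the 6676 genes that averaged 10 CPM or more, and 62 of those genes (0.929%), Hgd included, had an SD at least as large. The log2 fold change of −0.63 (SE 0.93, 95% interval −2.85 to 1.59, edgeR adjusted p = 0.78) therefore leaves room for a difference of either sign. It was −1.13 without control 1, where the diets no longer overlapped (as for 29.9% of all genes in that setting), −1.46 without PP-MP 1, −0.09 without control 3, −0.15 with limma-voom, −0.37 with library totals and −0.36, −0.32 and −0.37 without PP-MP 2, PP-MP 3 and control 2.

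The genes around Hgd did not share its spread. Its nearest expressed neighbours on the chromosome, Rabl3, Gtf2e1, Ndufb4 and Fstl1, ranged 1.36-fold to 1.83-fold over the 6 libraries. Rabl3 had 11.7, 13.9 and 12.0 CPM in PP-MP 1, 2 and 3, against 11.1, 10.3 and 12.1 CPM in control 1, 2 and 3, so control 1, low in Hgd, was not low there. In the annotation used here no other gene model shares exonic bases with Hgd. Very large jumps between single libraries also occurred in genes that every cell uses, chosen here after their values were seen. The mitochondrial transcript mt-Nd4, a subunit of the respiratory chain, had 0.159, 47.9 and 150.2 CPM in PP-MP 1, 2 and 3, against 392, 1121 and 580.3 CPM in control 1, 2 and 3. Its PP-MP libraries thus all lay below the control libraries, as for 9.79% of all genes tested, beside the wide spread within PP-MP. Aars, the alanyl-tRNA synthetase, had 31.9, 160.3 and 0.561 CPM in PP-MP 1, 2 and 3, against 77.2, 78.8 and 0.249 CPM in control 1, 2 and 3. Whether the values of Hgd share an origin with these jumps was not tested.

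**Figure D3:**
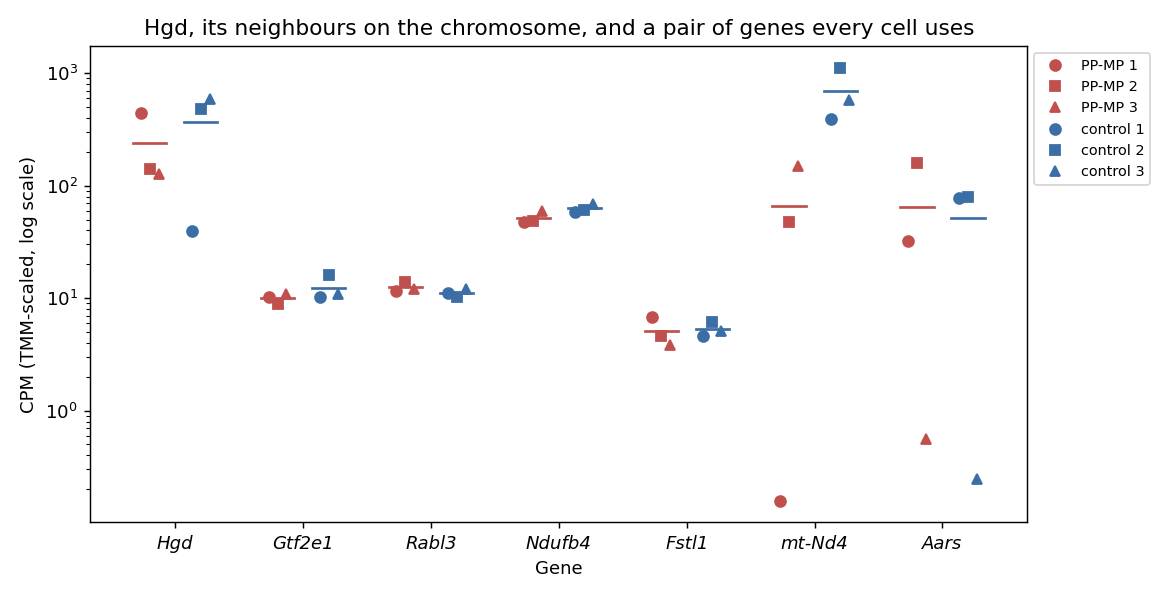
TMM-scaled CPM on a log axis of Hgd, of its 4 nearest expressed neighbours and of mt-Nd4 and Aars in each library; red symbols are PP-MP, blue symbols control, and bars are group means. Hgd spreads from 39.8 to 584 CPM while its neighbours stay within 1.83-fold. Below 1 CPM lie mt-Nd4 in PP-MP 1 and Aars in PP-MP 3 and control 3.

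Divided by exonic length (GENCODE basic set), the level of Hpd was 1525 ± 211 CPM per kilobase in PP-MP and 1577 ± 269 in control, far above the other 6 in every library. In PP-MP the order by mean level per kilobase was Hpd, Tat (329.8 ± 76.8), Fah (317 ± 32.3), Gstz1 (274.6 ± 41.8), Pcbd1 (181 ± 32.5), Qdpr (151 ± 26.9) and Hgd (139.8 ± 106). In control it was Hpd, Fah (347 ± 76.6), Gstz1 (325 ± 39.9), Pcbd1 (248 ± 31.3), Qdpr (224 ± 41.9), Tat (222 ± 46.8) and Hgd (216 ± 169.7). Neighbours below Hpd in these orders differed by less than the sum of their SDs, except Gstz1 and Pcbd1, and that order turned with the exons of the full annotation as lengths. There Gstz1 had 116 ± 17.7 CPM per kilobase in PP-MP and 137.5 ± 16.9 in control, below Pcbd1 at 181 ± 32.5 in PP-MP and 248 ± 31.3 in control. As a share of the summed level per kilobase of the 7 genes, which does not depend on library scaling, Hpd took 52.1% ± 2.54 in PP-MP and 49.7% ± 3.24 in control. Qdpr took 5.18% ± 0.78 in PP-MP and 7.09% ± 0.97 in control, and Pcbd1 6.20% ± 0.85 in PP-MP and 7.85% ± 0.07 in control. Tat took 12.9%, 8.90% and 12.0% in PP-MP 1, 2 and 3, against 7.63%, 9.28% and 4.77% in control 1, 2 and 3. The summed CPM of all 7 was 4641 ± 472 in PP-MP and 4915 ± 553 in control, and without Hgd 4403 ± 566 in PP-MP and 4547 ± 594 in control (SD, n = 3 each), so the totals overlapped.

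Ratios of counts between pairs of the 7 genes in the same library are free of scaling as well. Of 21 pairs, 8 did not overlap between the diets, beside 20.6% of all pairs of genes averaging 10 CPM or more. All 8 held either Qdpr or Pcbd1, each set against Tat, Hpd, Gstz1 or Fah, and none held Hgd. Qdpr and Pcbd1 did not overlap on their own either, so these 8 ratios are not separate observations. Qdpr counts per Hpd count were 0.0997, 0.125 and 0.109 in PP-MP 1, 2 and 3, against 0.175, 0.159 and 0.146 in control 1, 2 and 3. The PP-MP ratios were thus all below the control ratios, control 2 included. Qdpr counts per Fah count were 0.414, 0.522 and 0.483 in PP-MP 1, 2 and 3, against 0.660, 0.691 and 0.595 in control 1, 2 and 3. Pcbd1 counts per Gstz1 count were 0.244, 0.245 and 0.262 in PP-MP 1, 2 and 3, against 0.281, 0.293 and 0.296 in control 1, 2 and 3, with little spread within either diet. Tat counts per Pcbd1 count were 7.12, 3.74 and 5.43 in PP-MP 1, 2 and 3, against 2.85, 3.42 and 1.76 in control 1, 2 and 3.

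Over the 6 libraries the 7 genes formed groups by Pearson correlation of log2 CPM, given as a description of points that share libraries and scaling. Qdpr, Pcbd1 and Gstz1 were alike (r = 0.92 to 0.96), as were Hpd and Fah (r = 0.95). Tat ran against Qdpr, Pcbd1 and Gstz1 (r = −0.65, −0.72 and −0.68), and Hgd had r between −0.51 and −0.17 with each of the others. These groups rest on single libraries. Without control 2, Fah was as close to Qdpr, Pcbd1 and Gstz1 (r = 0.96, 0.94 and 0.90) as to Hpd (0.91). Without PP-MP 1, Gstz1 and Fah (0.88) were closer than Qdpr and Gstz1 (0.82). For 5 genes, Qdpr, Pcbd1, Hpd, Gstz1 and Fah, PP-MP 1 was the lowest PP-MP library and control 2, the library with the highest Rn18s-rs5 share, was the lowest control library. The part of that share in these levels was not tested. Among the 6669 other genes averaging 10 CPM or more, the closest to Pcbd1 was the corepressor Tle5 (r = 0.998). Chmp1a lay closest to Gstz1 (r = 0.999), Ciapin1 to Fah (r = 0.993), Rps2-ps13, a ribosomal protein pseudogene, to Hpd (r = 0.993), Trip12 to Tat (r = 0.963) and Ccser2 to Hgd (r = 0.971). With 6 points such values are common: 362 genes reached r = 0.95 with Qdpr, 342 with Pcbd1, 316 with Gstz1, 52 with Fah, 36 with Hpd, and 3 each with Tat and Hgd.

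**Figure D4:**
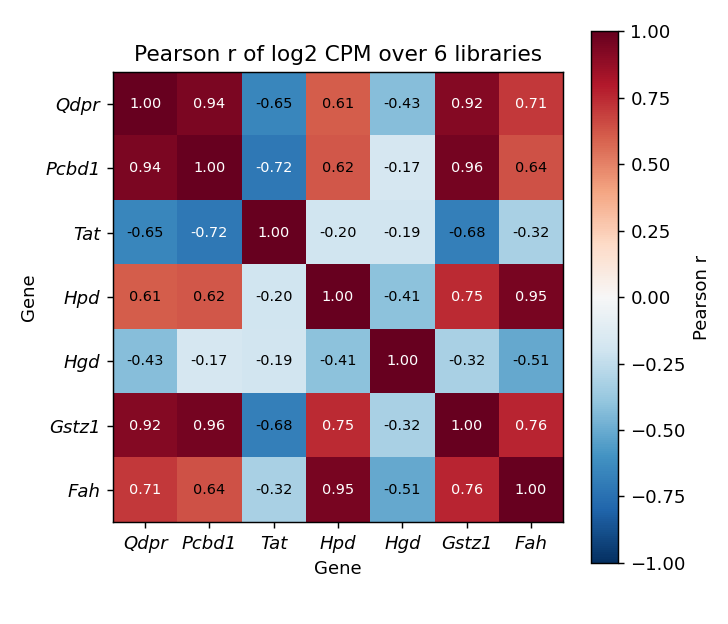
Pearson correlation of log2 CPM between each pair of the 7 genes over 6 libraries, from −1 in blue to 1 in red. Over all 6 libraries Qdpr, Pcbd1 and Gstz1 are closest to one another (0.92 to 0.96), as are Hpd and Fah (0.95), a split that is lost without control 2, where Qdpr and Fah reach 0.96.

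Genes around the pathway gave no edgeR call in any list. At an edgeR unadjusted p under 0.05, 5.81% of all genes tested were lower and 8.05% higher. Among other fates of tyrosine, 4 of 7 genes were tested, and Th, Tyr and Tyrp1, of catecholamine and pigment synthesis, had 0 counts in all libraries. All 4 had lower means in PP-MP, 3 of them at an unadjusted p under 0.05 (median −0.39). Ddc, the aromatic amino acid decarboxylase, averaged 41.7 ± 1.26 CPM in PP-MP and 53.3 ± 8.17 CPM in control (log2 fold change −0.35, edgeR adjusted p = 0.36). Maoa, a monoamine oxidase, averaged 8.41 ± 1.67 CPM in PP-MP and 12.1 ± 1.02 CPM in control (log2 fold change −0.53, edgeR adjusted p = 0.32).

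Of 7 carriers of aromatic amino acids 6 were tested, with 1 lower at an unadjusted p under 0.05 and a median of 0.13. Slc3a2, the partner chain of several amino acid exchangers, averaged 26.7 ± 2.12 CPM in PP-MP and 35.6 ± 4.38 CPM in control (log2 fold change −0.41, edgeR adjusted p = 0.31). Slc16a10, a carrier of aromatic amino acids, averaged 67.5 ± 6.34 CPM in PP-MP and 81.3 ± 3.20 CPM in control (log2 fold change −0.27, edgeR adjusted p = 0.41). Neither overlapped between the diets. Among genes related to the 7 or using similar substrates, 5 of 6 were tested, and the median was 0.14. Kyat3, an aminotransferase of kynurenine and other amino acids, had 35.1, 71.3 and 80.9 CPM in PP-MP 1, 2 and 3, against 11.8, 9.79 and 5.20 CPM in control 1, 2 and 3. DESeq2 called it as higher, and edgeR did not (log2 fold change 2.81, SE 0.43, edgeR adjusted p = 0.18). Kyat1, its relative, averaged 15.6 ± 4.49 CPM in PP-MP and 26.9 ± 12.7 CPM in control and overlapped (log2 fold change −0.79, edgeR adjusted p = 0.42).

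Of 11 aminotransferases 10 were tested, 1 was higher at an unadjusted p under 0.05, and the median was −0.10. That gene was Bcat2, the mitochondrial aminotransferase of branched-chain amino acids, with 28.5, 33.6 and 29.6 CPM in PP-MP 1, 2 and 3, against 18.0, 10.3 and 10.9 CPM in control 1, 2 and 3 (log2 fold change 1.23, SE 0.24, edgeR adjusted p = 0.18). DESeq2 called it as higher. Of 38 genes that break down other amino acids all were tested, 29 had lower and 9 higher fitted values, 6 were lower at an unadjusted p under 0.05, and the median was −0.16. Mccc1, of leucine breakdown, had 18.0, 19.0 and 24.3 CPM in PP-MP 1, 2 and 3, against 38.1, 46.0 and 38.1 CPM in control 1, 2 and 3 (log2 fold change −0.997, SE 0.17, edgeR adjusted p = 0.18). Csad, which makes the precursor of taurine, averaged 231 ± 69.0 CPM in PP-MP and 443 ± 85.9 CPM in control (log2 fold change −0.94, edgeR adjusted p = 0.25). DESeq2 called this pair, both as lower. Hibadh, of valine breakdown, averaged 203 ± 48.0 CPM in PP-MP and 326 ± 31.9 CPM in control (log2 fold change −0.68, edgeR adjusted p = 0.28).

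The end products of the pathway enter other routes. A list of 10 genes was read for fumarate, acetoacetate and malate, though it also holds Acss1, which uses acetate. Of the 10, 1 was higher at an unadjusted p under 0.05 (median −0.23). Fh1, the fumarase, had 202, 181 and 202 CPM in PP-MP 1, 2 and 3, against 135, 164 and 162 CPM in control 1, 2 and 3. It was above control in every PP-MP library (log2 fold change 0.34, SE 0.14, edgeR adjusted p = 0.36), while Mdh1, the cytosolic malate dehydrogenase, averaged 355 ± 62.5 CPM in PP-MP and 481 ± 76.9 CPM in control (log2 fold change −0.44, edgeR adjusted p = 0.40). For Mdh1 the highest PP-MP library, at 391 CPM, lay just under control 2, at 393 CPM.

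**Figure D5:**
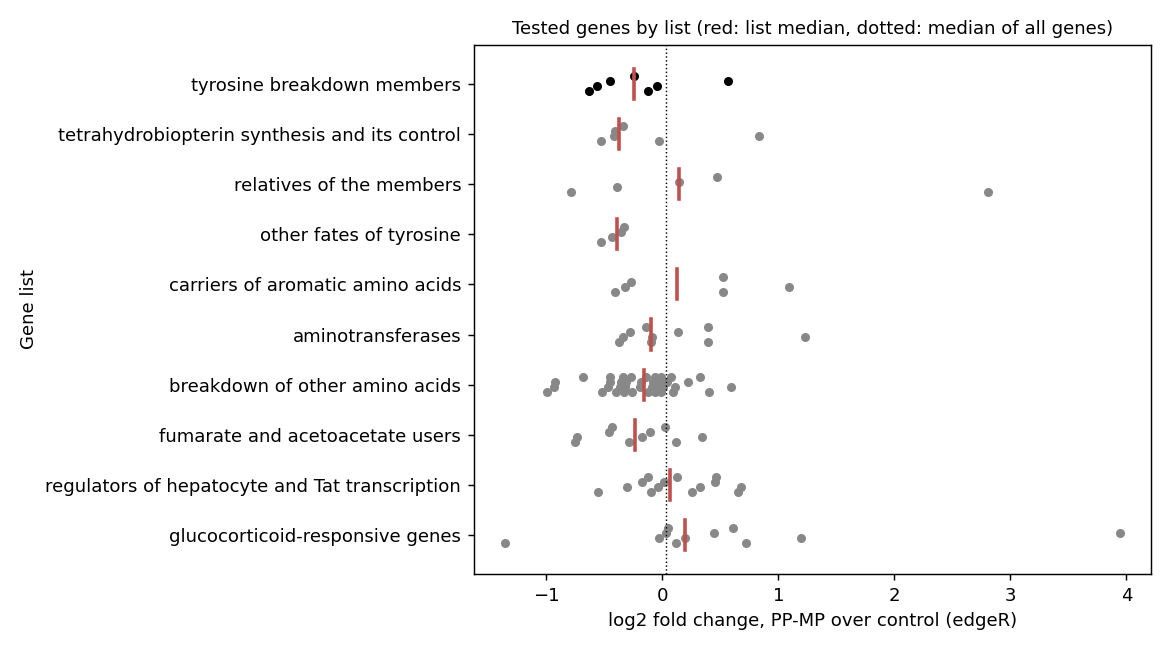
Log2 fold change of PP-MP over control for every tested gene of the 7 breakdown genes (black, top row) and of 9 lists of related genes (grey); the red bar is the list median and the dotted line the median of all genes tested. The medians of the breakdown genes (−0.25), of tetrahydrobiopterin synthesis (−0.38) and of other fates of tyrosine (−0.39) lie left of the line. So do those of fumarate and acetoacetate users (−0.23), breakdown of other amino acids (−0.16) and aminotransferases (−0.10). The medians of the remaining lists lie right of it.

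Acute phase, macrophage and neutrophil genes were highest in PP-MP 1. The summed level of 20 acute phase genes was 50461, 17195 and 13943 CPM in PP-MP 1, 2 and 3, against 16953, 13998 and 15497 CPM in control 1, 2 and 3. PP-MP 1, the lowest of the PP-MP libraries in Qdpr, Pcbd1, Hpd, Gstz1 and Fah, thus stood highest in acute phase genes. At an edgeR unadjusted p under 0.05, 8.05% of all genes tested had higher means in PP-MP. So did 8 of 19 acute phase genes, 6 of 11 macrophage markers and 3 of 5 neutrophil markers. After adjustment edgeR called 0 in each list, and DESeq2 called 1, 3 and 1 as higher, beside 2.39% of all genes. DESeq2 gave no adjusted p for some acute phase genes, among them Saa1, Saa2, Orm2 and Lcn2. All 11 macrophage markers had higher fitted values in PP-MP, with a summed level of 211 to 764 CPM in PP-MP and 173 to 198 CPM in control. Neutrophil markers summed to 2.45 to 22.3 CPM in PP-MP and 0.927 to 1.30 CPM in control, and Ly6g had 0 counts in PP-MP 3 and in all control libraries. Markers of T, NK and B cells summed to 8.80 to 49.5 CPM in PP-MP and 20.4 to 56.9 CPM in control, and all 8 tested had lower fitted values. Of the 12 hepatocyte markers, 5 had higher and 7 lower fitted values, and edgeR called 0. DESeq2 called 1 of them, Apoa1, as higher, beside 2.39% of all genes. Apoa1 averaged 6895 ± 3094 CPM in PP-MP and 2016 ± 1452 CPM in control (log2 fold change 1.77, edgeR adjusted p = 0.30). The part of these cell types and of the acute phase genes in the levels of the 7 genes was not tested. Without PP-MP 1 the log2 fold changes were −0.43 for Qdpr, −0.32 for Pcbd1 and 0.51 for Tat, and 0 of the 7 genes had an edgeR unadjusted p under 0.05 (0.076 for Qdpr and 0.105 for Pcbd1). Summed levels of sinusoidal endothelium (70.0 to 121 CPM in PP-MP and 84.3 to 94.2 CPM in control), stellate cells and fibroblasts (299.9 to 462 CPM in PP-MP and 332 to 346 CPM in control) and cholangiocytes (88.1 to 103 CPM in PP-MP and 102 to 108 CPM in control) overlapped. Kidney tubule, another site of tyrosine breakdown, had a summed marker level of 0.493 to 1.02 CPM in PP-MP and 0.229 to 1.16 CPM in control, with Slc34a1, Kap and Slc22a6 at 0 counts. Pancreatic markers summed to 8.04 to 15.1 CPM in PP-MP and 10.1 to 13.4 CPM in control, nearly all of it from Cela1.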

How the data were processed

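Mouse liver RNA was measured in 6 libraries by poly(A) RNA sequencing, with a directional NEBNext kit per the labels. The deposited tables hold raw counts per gene symbol, in a table of all samples and in tables per sample with identical values. The submitters' processing notes name bcl2fastq and the build GRCm39. For the aligner, counting tool, strand setting and annotation, no entry is given in the sources used here. The members and the lists, the tests and the alternatives were chosen with earlier results of these data known.

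Counts were filtered with filterByExpr, scaled with TMM, and compared two-sided and unpaired in edgeR 4.0.16 (R 4.3.3) by its quasi-likelihood test with robust dispersion. P-values were adjusted by Benjamini-Hochberg over the 18284 genes tested, at 0.05. Log2 CPM used a prior count of 2. Alternatives used DESeq2 1.42.0 and limma 3.58.1. The procedure was tested on simulated data. Over all genes tested, same-numbered libraries did not deviate together (r = −0.0662, −0.0872 and 0.047). Within each diet no libraries were duplicates (chi-square per degree of freedom 154 to 928), and pairs across the diets were not checked. Exonic lengths and overlaps come from GENCODE M21 (GRCm38). From each list at most 3 genes of smallest p with a mean CPM of at least 1 are named, with the gene of highest r for the members; cell marker and acute phase lists are given as sums. Some genes that this rule names and 1 promoter motif are not reported here. The gene pair mt-Nd4 and Aars was chosen after its values were seen. Of the listed symbols, 1 matched through a synonym and 1 not at all. Tables and figures were made in Python 3.11.15 (pandas 2.3.3, matplotlib 3.10.9).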

Additional observations from a re-analysis of the deposited data

How the results depend on the processing

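The 7 genes were refitted under 16 alternatives each, and none passed its threshold in any of the 112 fits (smallest edgeR, DESeq2 or limma adjusted p = 0.15, for Qdpr without control 2). The direction was kept in 107. It turned for Hpd and Fah with library totals (0.175 and 0.0933) and for Hpd without PP-MP 1, control 1 or control 3 (0.028, 0.016 and 0.066), its range with 1 library left out being −0.169 to 0.066, with adjusted p of the turned values from 0.69 to 0.99. The count of all genes called was 2, and it was 777 with DESeq2, 1 with limma-voom, 1 with library totals, and 0 to 92 with 1 library left out (92 without control 2). With a replicate block it was 0. None of the 7 genes had been called before, so the block had no call among them to take away. Their count at an edgeR unadjusted p under 0.05 went from 2 to 0 with the block (0.075 for Qdpr and 0.060 for Pcbd1). It was also 0 without PP-MP 1, control 1 or control 3, and 1 with library totals or without PP-MP 2. The number of the 7 without overlap between the diets was 1 with library totals, 2 to 5 with 1 library left out, and 5 without control 2 and PP-MP 1 together. The share of all genes without overlap was 27.1% with library totals, 27.9% to 44.1% with 1 library left out and 53.4% without that pair, against 22.0% with all 6 libraries. The median log2 fold change of the 7 genes was −0.017 with library totals and −0.328 to −0.085 with 1 library left out. Shares by length moved by more than 1 SD in 18 of 70 settings; exons of the full annotation as lengths were chosen after seeing the data. The cause of these shifts was not tested. With 3 libraries a group the 95% interval of Hgd spans both signs, which depth does not limit.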
